A study of Drosophila melanogaster with 4 samples.

Results

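The genes described here encode the proteins of the cytoplasmic ribosome in the Drosophila ovary. They were taken by symbol from the deposited table as every gene whose name starts with RpL, RpS or RpLP followed by a digit, plus sta, and copies marked a, b or -like were kept. The rule uses names and no measured value. It found 93 of 17490 genes, 39 for the small 40S subunit and 54 for the large 60S subunit. RpL10Ab, the fly RPL10a that carries the tag in these flies, is given apart from the counts. By position in the BDGP6.54 annotation (dm6 coordinates), 19 members lie on chromosome arm 2L, 21 on 2R, 14 on 3L, 23 on 3R, 1 on chromosome 4 and 15 on X.

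Ribosome-bound mRNAs were purified from whole ovaries by translating ribosome affinity purification (TRAP), in which a GFP-tagged RPL10a is expressed in chosen cells and polysomes are pulled down with anti-GFP antibodies. The soma libraries came from flies labelled tj:gal4, UAS RPL10-GFP, in which the traffic jam driver acts in follicle cells and other ovarian somatic cells. The germline libraries came from flies labelled Nos:Gal4Vp16, UAS:RPL10-GFP, in which the nanos driver acts in germ cells. Each group had 2 libraries, made from pooled ovaries of many females, and every fly carried the tagged RPL10a. Tissue, driver and genotype therefore changed together and cannot be told apart. In such bulk samples fewer cells of a type and less ribosome-bound RNA per cell cannot be told apart either. The paper describes its replicates as biological, but the labels do not say that the libraries of a group came from separate flies. The p-values therefore measure the spread between these 4 libraries, which may be technical.

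A ribosome holds each of its proteins in about equal amount, and most cells transcribe and translate the genes for them together. In flies the mRNAs of this class begin with a run of pyrimidines, and their translation follows nutrient supply through the TOR pathway. In the ovary, nurse cells make ribosomes for the egg, and follicle cells grow and copy their DNA repeatedly. Several fly ribosomal proteins have a second gene, and some of these duplicates are used mainly in germ cells.

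The deposited values are FPKM, which scale the reads of a gene by its length and by a factor of the library. That factor was not depth alone, as the values had also been scaled between libraries. A read per kilobase of exon was worth 0.0233 FPKM in soma 1, with 18142020 reads recovered, and 0.811 in soma 2, with 2445604. Whole reads recovered from the FPKM numbered 629199 to 17013813 per library outside rRNA. Soma 1 was the deepest and soma 2 the shallowest, and rRNA genes took 6.22% of the reads of soma 1 and 55.6% to 74.3% of the others. Of the 85 members that averaged 10 FPKM or more, RpS10a apart, the 83 with whole reads had at least 42 reads in every library and a median of 918 to 11227. Of 11 follicle cell markers tested, 9 passed an adjusted p of 0.05 in limma as higher in the soma (for example tj and Yp1), while zfh1 lay lower there. Of 13 germ cell markers tested, 7 passed as higher in the germline. All 13 had negative log2 fold changes of soma over germline, with a median of −1.34, compared with 3.41 for the follicle cell markers. Germ cell mRNAs were thus present in the soma libraries. For example, osk measured 89.6 FPKM in soma 1, 61.6 in soma 2, 155 in germline 1 and 228 in germline 2. Follicle cell mRNAs were likewise present in germline 1 and germline 2, from Yp2 at 305 and 211 FPKM down to ct at 0.058 and 0.117. The part of such RNA in the fold changes of other genes was not tested.

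RpL10Ab (chromosome 3L, positions 11822851 to 11824211, plus strand) encodes the large-subunit protein that was tagged. It measured 425.9 FPKM in soma 1, 615.9 in soma 2, 489.5 in germline 1 and 287.3 in germline 2. The groups overlapped, and the log2 fold change of soma over germline was 0.45 (SE 0.48, limma adjusted p 0.58). Reads from the tagged transgene and from the chromosomal gene share coding sequence, so this level need not be that of the chromosomal gene, and whether the transgene was counted with it was not tested. Its paralogue RpL10Aa was at 0 FPKM in all 4 libraries. Relative to the median member of the same library, RpL10Ab stood at 1.32 in soma 1 and between 0.808 and 0.820 in the other libraries.

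Ribosomal protein mRNAs were among the most abundant of the ovary in both tissues. The median of the 85 expressed members was 323 FPKM in soma 1, 759 in soma 2, 606 in germline 1 and 350 in germline 2, against 6.51 to 7.29 FPKM for the median of all genes tested. Both germline medians thus lay between the 2 soma medians. Soma 2 was the highest library for 76 of 85 members and germline 1 for the other 9, whereas soma 1 was the lowest for 64 and germline 2 for 21. The order soma 2, germline 1, germline 2, soma 1 held for 56 members, and the same order with germline 2 last for 19.

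The gap between libraries of the same tissue was wider than the gap between tissues. From soma 1 to soma 2 all 85 members were higher, by a median of 2.45-fold (range 1.04-fold for RpL24-like to 4.66-fold for RpS28b), while the median log2 ratio of all genes tested was 0. From germline 1 to germline 2 all 85 were lower, to a median of 0.604 of the first value, with the nearest at 0.878 (RpS20). Averaged per group, the library medians came to 541 FPKM ± 309 for soma and 478 ± 180 for germline (SD, n = 2), and an exact two-sided permutation test gave p = 1, where the smallest p that 2 against 2 libraries allow is 0.333.

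The members' share of all FPKM was 13.2% in soma 1, 7.50% in soma 2, 9.43% in germline 1 and 8.77% in germline 2. The soma mean was 10.3% ± 4.03 and the germline mean 9.10% ± 0.471 (SD, n = 2, exact permutation p = 1). Without rRNA genes in the total the shares were 14.1%, 21.5%, 25.8% and 19.3% in the same order of libraries, so that soma 1 moved from the highest share to the lowest. Over protein-coding genes alone they were 15.6%, 29.7%, 29.7% and 21.7%. In none of the 3 totals did the tissues separate.

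Other values also differed between the libraries. The rRNA share of reads was 6.22% in soma 1, 74.3% in soma 2, 65.3% in germline 1 and 55.6% in germline 2. This share followed the order of the member medians. Reads outside rRNA ran in the reverse of that order, at 17013813 in soma 1, 629199 in soma 2, 1194623 in germline 1 and 1313996 in germline 2. Of 8 markers of the ovarian muscle sheath listed, 7 were in the table, and their summed level was 3.71 FPKM in soma 1, 18.4 in soma 2, 14.2 in germline 1 and 1.57 in germline 2, with Mlp60A at 0 in germline 2. The muscle sum was lowest in germline 2, not in soma 1, and so followed the order of the member medians only in part. Summed markers of haemocytes and fat body stayed between 0 and 0.151 FPKM, with NimC1, Lsp2 and Fbp1 at 0 in every library. The part of depth, rRNA or muscle RNA in the level of the ribosomal protein genes was not tested.

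**Figure D1:**
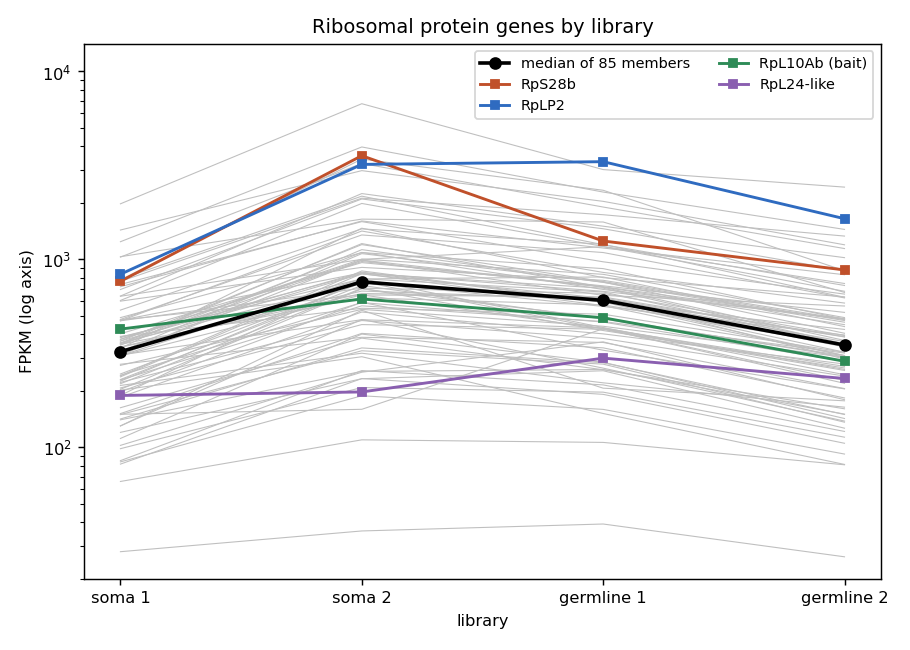
FPKM (log axis) of 85 ribosomal protein genes in each of the 4 libraries (genes averaging 10 FPKM or more). Grey lines join the values of a gene, black points give the median and coloured lines single genes. The median was 323 in soma 1, 759 in soma 2, 606 in germline 1 and 350 in germline 2, and RpL24-like hardly moved between the soma libraries (1.04-fold).

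Between tissues, 1 of the 86 members tested without the bait passed the test, and it was a duplicate gene. The test was limma on log2(FPKM + 0.1), with p-values adjusted over the 8823 genes that averaged 0.1 FPKM or more. At an adjusted p under 0.05, 0 members were higher in the soma, where 8.64% of all genes tested were called, and 1 was higher in the germline, where 3.59% were called. This was RpS10a. With the study's cut-offs for this comparison, over 5-fold and p under 0.05, taken here as unadjusted, the counts were again 0 in the soma (9.41% of all genes) and 1 in the germline (1.08%). Limma-voom on the recovered reads, at an adjusted p under 0.05, called 1 member in the soma (10.8% of all genes in that fit) and RpS10a in the germline (7.7%). Without adjustment 3 members had p under 0.05 in limma, RpS10a among them, where 27.8% of all genes tested did.

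The remaining fold changes lay close together. The median log2 fold change of soma over germline was 0.09 over the members and 0.04 over all genes tested, and 80 of 86 members lay within 0.5 of 0 on that scale, compared with 2960 of 8823 genes. The sign of the member median followed single libraries, from 0.72 without soma 1 to −0.55 without soma 2. It was −0.41 when libraries were scaled to equal FPKM totals without rRNA genes, a scaling that moved the median of all genes to −0.43, and −0.29 after quantile normalization, which moved that of all genes to −0.17. A near-zero estimate does not show equal expression, since the median 95% interval of a member ran from −1.36 to 1.51 and the median SE was 0.60, compared with 0.35 for 223 other genes averaging 100 FPKM or more.

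Groups that did not overlap were few. In both soma libraries 1 member was higher (29.6% of all genes tested were), and 3, among them RpS10a and RpL24-like, were higher in both germline libraries (25.8%). The median log2 fold change was 0.10 over 35 expressed 40S members and 0.09 over 50 expressed 60S members.

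**Figure D2:**
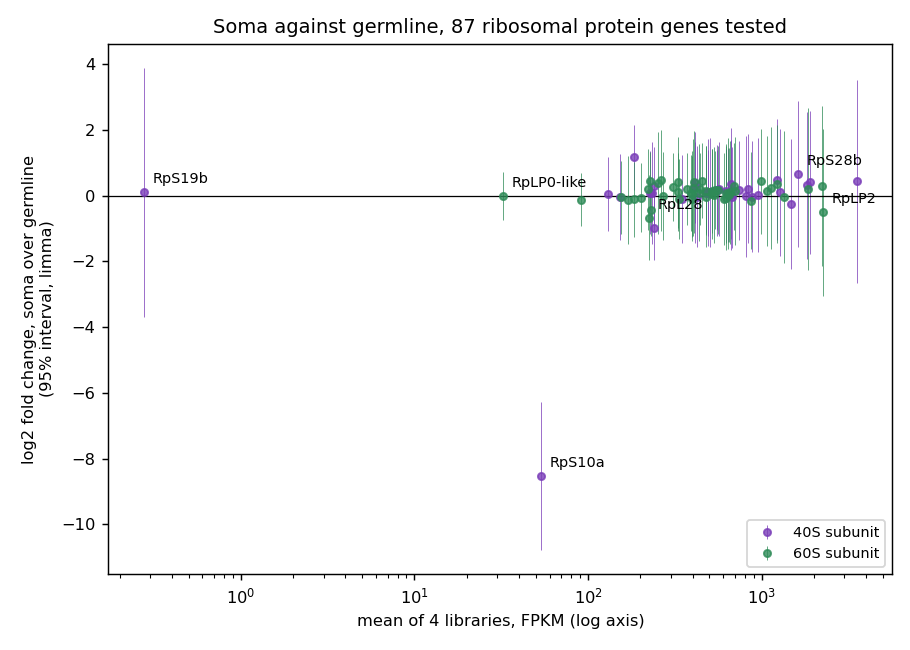
Log2 fold change of soma over germline with its 95% interval from limma, against the mean of the 4 libraries in FPKM (log axis), for the 87 members tested, with the 40S and 60S subunits in separate colours. RpS10a at −8.53 stands alone, and RpS28b and RpL28 lie at 0.65 and −0.67.

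RpS10a (chromosome 3R, positions 27652760 to 27653363, plus strand) encodes a second form of RpS10, a protein of the small-subunit head near the mRNA entry. It measured 0.540 FPKM in soma 1 and 0 in soma 2, from 14 reads and 0 reads, and 158 FPKM in germline 1 and 54.8 in germline 2, from 281 and 120 reads. Both germline libraries thus stood far above both soma libraries, although they differed between themselves. The germline mean of 107 FPKM was 197-fold that of soma 1, and at least 26.5-fold above 3 reads in soma 2, where 3 reads are worth 4.03 FPKM. The fitted log2 fold change was −8.53 (SE 0.95, limma adjusted p 0.0037), a value that depends on the added 0.1 because a soma library was at 0. The 13 germ cell markers tested ran from −1.78 for AGO3 to −0.31 for grk. RpS10a lay far outside that range, and the reason was not tested. The direction held with each library left out in turn, but the adjusted p was 0.12 without soma 1, 0.16 without soma 2, 0.30 without germline 1 and 0.25 without germline 2. Among all genes, 0 were called in either tissue without a germline library, and 11 and 6 were called in the germline without soma 1 and soma 2.

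Its partner RpS10b (chromosome X, positions 19598031 to 19599806, plus strand) measured 163 FPKM in soma 1, 381 in soma 2, 259 in germline 1 and 160 in germline 2, with soma 2 the highest and germline 2 the lowest library. Of the summed RpS10 mRNA, RpS10a therefore made up 0.331% in soma 1, 0% in soma 2, 37.9% in germline 1 and 25.5% in germline 2. RpS10b itself was not called (log2 fold change 0.29, SE 0.50, limma adjusted p 0.73).

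**Figure D3:**
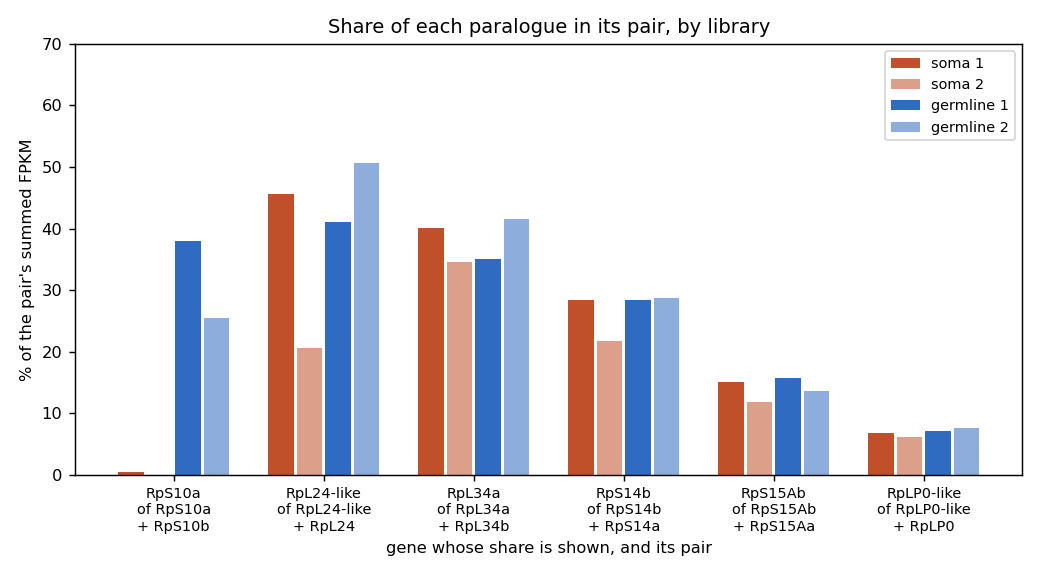
Share of the named paralogue in the summed FPKM of its pair, in percent, for 6 pairs in the 4 libraries, soma in orange and germline in blue. The share of RpS10a was at most 0.331% in the soma and at least 25.5% in the germline, and in the other 5 pairs the group means differed by 0.922 to 12.8 points.

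The RpS14, RpS15A and RpL34 duplicates had nearly the same ratio in both tissues. RpS14a and RpS14b, neighbours on X that encode a protein of the platform of the small subunit, shared their mRNA so that RpS14b made up 28.4% in soma 1, 21.8% in soma 2, 28.4% in germline 1 and 28.8% in germline 2. RpS15Ab made up 15.1%, 11.7%, 15.7% and 13.6% of the RpS15A pair in the same order. RpL34a made up 40.1%, 34.5%, 35.1% and 41.6% of the RpL34 pair. In each of these soma 2 had the lowest share, and the difference between tissue means was 1.05 to 3.50 points. Copies this alike can exchange reads in alignment, and how such reads were counted is not given in the sources used here, so the split within a pair is uncertain.

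RpL24-like and RpLP0-like encode relatives of ribosomal proteins that act in ribosome assembly. RpL24-like (chromosome 3R, positions 11430740 to 11431582, minus strand), whose human counterpart RSL24D1 holds the place of RPL24 on the maturing large subunit, measured 189 FPKM in soma 1, 197 in soma 2, 298 in germline 1 and 233 in germline 2. It was higher in both germline libraries, with a log2 fold change of −0.45 that did not pass (SE 0.33, limma adjusted p 0.43). Unlike nearly all members it hardly moved between the soma libraries, and RpL24 itself went from 225 FPKM in soma 1 to 762 in soma 2, which took the share of RpL24-like from 45.6% to 20.6%. RpLP0-like, whose human counterpart MRTO4 holds the place of the stalk base, was the lowest of the 85 members in every library at 26.2 to 39.1 FPKM, and both extremes fell in the germline. Its share of the RpLP0 pair was 6.14% and 6.68% in the soma and 7.11% and 7.55% in the germline (exact permutation p = 0.333, the smallest possible).

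Of the 14 second genes in 13 families, 7 stayed under 10 FPKM in every library. RpL7-like, RpL37b, RpL10Aa, RpS28a and RpS28-like had 0 reads in all 4 libraries, which allows up to 3 reads in each. Exons of RpL7-like overlap CG34164 and those of RpS28-like overlap CG3769 on the same strand. How shared reads were counted is not given, so this bound may not hold for RpL7-like and RpS28-like. RpL22-like, known for its use in the testis, had 1 read in germline 2 and 0 elsewhere. RpS19b, also known from the testis, had 17 reads in soma 1 (0.595 FPKM), 1 in germline 1 (0.511 FPKM) and 0 in the others, against 481 to 1087 FPKM for RpS19a. The depth of soma 1 carries these limits for the soma: 3 reads are worth 0.116 FPKM of RpS10a there, compared with 4.03 in soma 2. In 8 of the 13 families the main gene lies on X, and 8 of the 9 second genes of these families lie on an autosome.

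Among the other members of the small subunit, RpS28b, near the mRNA exit, spanned the widest range, from 765 FPKM in soma 1 to 3563 in soma 2, with 1253 and 880 in the germline. RpS18 measured 785, 2171, 1198 and 727 FPKM in soma 1, soma 2, germline 1 and germline 2, and RpS3, which lines the mRNA entry, 1433, 2967, 2037 and 1196. These 3 had the larger soma means, with log2 fold changes of 0.40 to 0.65 and SEs from 0.775 for RpS18 upwards, and each turned negative when soma 2 was left out, from −0.12 for RpS3 to −0.46 for RpS28b.

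RpS3A, on chromosome 4, measured 764 FPKM in soma 1, 2117 in soma 2, 1729 in germline 1 and 1331 in germline 2. It had the smallest log2 fold change of the 40S members without a duplicate, at −0.25 (SE 0.83, limma adjusted p 0.87). RpS26, also at the mRNA exit, was the least abundant of these, at 81.5 and 232 FPKM in the soma and 192 and 105 in the germline. RpS27A is made as a fusion with ubiquitin, and measured 336 FPKM in soma 1 and 1466 in soma 2, with 800 and 632 in the germline. The protein encoded by sta, the fly RPSA, needed for small-subunit maturation, was steadier, at 471, 703, 660 and 394 FPKM in the same order.

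In the large subunit, RpLP2 of the stalk that recruits elongation factors stood out from its partners. It measured 834 FPKM in soma 1, 3203 in soma 2, 3312 in germline 1 and 1647 in germline 2, and it was the highest member of all in germline 1. RpLP1, which binds RpLP2, measured 360.1, 759, 562 and 396 FPKM, and RpLP0, the base of the stalk, 389, 550, 511 and 321 FPKM. The log2 fold changes were −0.51 for RpLP2 (SE 1.07), 0.15 for RpLP1 (SE 0.54) and 0.19 for RpLP0 (SE 0.46), and none of the 3 passed (limma adjusted p 0.78 to 0.88). Although these proteins are joined in a single stalk, the FPKM of RpLP2 was 2.32 times that of RpLP1 in soma 1, 4.22 in soma 2, 5.89 in germline 1 and 4.16 in germline 2.

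RpL28, which has no counterpart in budding yeast, measured 103 FPKM in soma 1, 251 in soma 2, 364 in germline 1 and 179 in germline 2 (log2 fold change −0.67, SE 0.54, limma adjusted p 0.47). Its exons overlap those of nSMase on the other strand. RpL4, which reaches into the exit tunnel, measured 637, 1001, 1169 and 677 FPKM, and RpL39, a small protein of the same tunnel whose exons overlap those of RpL12 on the other strand, 85.0, 256, 215 and 122 FPKM. RpL13 was similarly low, at 120, 232, 256 and 127 FPKM. On the soma side, RpL38 measured 130, 536, 207 and 177 FPKM and RpL27A 736, 1589, 971 and 654 FPKM. RpL36, the most abundant large-subunit mRNA after RpLP2, measured 1242, 3965, 2282 and 1444 FPKM, and RpL40, the other ubiquitin fusion, 242, 590, 464 and 287 FPKM. All of these groups overlapped.

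Although the level of the whole set shifted, the members kept their ranks. Across the 85 members, the rank correlation between libraries was 0.882 for the soma pair, 0.979 for the germline pair and 0.937 to 0.951 between tissues, as a description over genes that share libraries and gene lengths. The highest FPKM of a member was a median of 2.64 times its lowest, and 1.38 times once each value was divided by the member median of its library. After that division 55 of 85 members varied less than 1.5-fold over the 4 libraries, with RpL31 the steadiest at 1.05-fold and the most variable at 3.36-fold.

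On this relative scale, RpLP2 was 2.58 in soma 1, 4.22 in soma 2, 5.47 in germline 1 and 4.70 in germline 2, and RpL28 was 0.317, 0.331, 0.601 and 0.512. RpS3 went the other way, at 4.44, 3.91, 3.36 and 3.41. Groups did not overlap for 7 members higher in the soma (20.3% of all genes tested on the same scale) and 14 higher in the germline (13.0%), of the 86 without the bait. Among the former were RpL27A, RpS3, RpS18 and RpS10b, and among the latter RpLP2, RpL28, RpS3A and RpS10a. Limma was also run with libraries scaled to a member median that counted RpS10a. At an adjusted p under 0.05 RpS10a was then the only member called. Of all 8823 genes tested, 37 were called in the germline and 321 in the soma.

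Among the members, the shift between the soma libraries was larger for shorter genes. The rank correlation between the length of the longest coding sequence and the log2 ratio of soma 2 to soma 1 was −0.600 over the 85 members, and with exon length it was −0.306. Over 202 other coding genes averaging 100 FPKM or more the correlation with coding length was −0.00096. Their median coding length was 996 bases, compared with 468 for the members, so this does not show whether other short genes lack the relation. The 44 members with coding sequences up to 468 bases had a median log2 ratio of 1.59, and the 41 longer members 1.03. RpL41, with 75 coding bases, had a log2 ratio of 2.13, and RpL3, with 1248, had 0.62. For germline 1 over germline 2 the same correlation was −0.153, and for the fold change of soma over germline −0.136. Depth and rRNA share differed between the soma libraries, and their part in this relation was not tested.

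**Figure D4:**
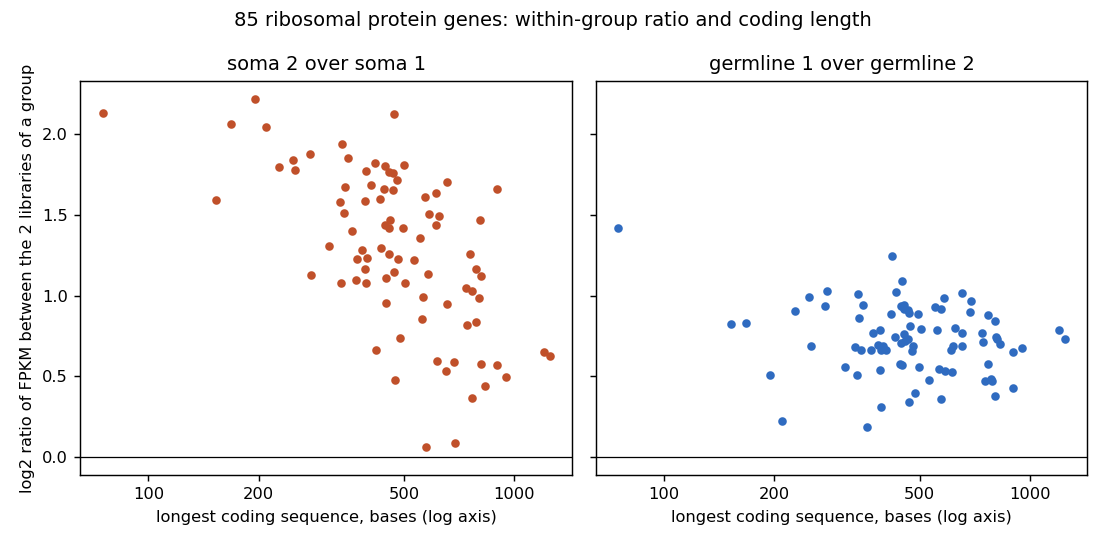
Log2 ratio of FPKM between the libraries of a group against the length of the longest coding sequence in bases (log axis), 1 point per gene for 85 members, soma 2 over soma 1 on the left and germline 1 over germline 2 on the right. All points lie above 0, and the soma ratio falls with length (rank correlation −0.600), with −0.153 for the germline ratio.

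Genes that work with the ribosome were compared in the same fit. Of 12 elongation factors and ribosome-associated proteins, 11 were tested and 0 passed an adjusted p of 0.05 in limma or, for the 9 with whole reads, in limma-voom, nor an unadjusted p of 0.05 in limma. The log2 fold changes ran from −0.48 to 0.30 with a median of −0.09, which was 0.28 without soma 1 and −0.47 without soma 2, so no direction can be given for the list. Ef1alpha48D, which brings aminoacyl-tRNA to the ribosome, measured 1956 FPKM in soma 1, 3957 in soma 2, 3454 in germline 1 and 2552 in germline 2, in the same order as most ribosomal protein genes. Rack1, a scaffold on the small subunit, measured 344, 448, 443 and 293 FPKM. The shift between the soma libraries was milder in this list, with a median log2 ratio of 0.38, compared with 1.29 for the 85 members. The 223 genes other than members averaging 100 FPKM or more, which include those tested of this list, also had a median of 0.38. Within the tested list the ratio ran from 0.08 for Ef1gamma to 1.95 for eIF-5A. Whether the list differed from abundant genes was not tested.

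Genes that build ribosomes were mostly lower in the soma, without passing the main test. Of 25 genes for rRNA synthesis, rRNA modification and subunit assembly, 22 had negative log2 fold changes, with a median of −0.52, and in 15 both germline libraries exceeded both soma libraries (25.8% of all genes tested did). At an adjusted p of 0.05 in limma 0 passed, and 6 of 25 had an unadjusted p under it, a share no higher than the 27.8% of all genes tested. Limma-voom on the recovered reads called 2, Nop60B and bys, where 7.7% of all genes in that fit were called in the germline, and other pseudocounts, filters and scalings called at most 2. The median stayed negative in every alternative, from −0.32 without germline 1 to −1.03 with equal FPKM totals, which shift all genes to −0.43. Nop60B, the pseudouridine synthase of rRNA, measured 39.0 FPKM in soma 1, 29.0 in soma 2, 80.5 in germline 1 and 65.6 in germline 2 (log2 fold change −1.11, SE 0.28, limma adjusted p 0.051). The assembly factor bys measured 16.9, 11.8, 32.1 and 30.2 FPKM (log2 fold change −1.13, SE 0.30, limma adjusted p 0.056), and Surf6 13.7, 4.94, 25.7 and 24.7 FPKM (log2 fold change −1.60, SE 0.49, limma adjusted p 0.083). An exception was eIF6, which keeps new large subunits from joining early, at 24.4, 46.1, 24.5 and 16.5 FPKM. With a median log2 ratio of −0.14 between the soma libraries, this list did not share the shift of the ribosomal protein genes.

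**Figure D5:**
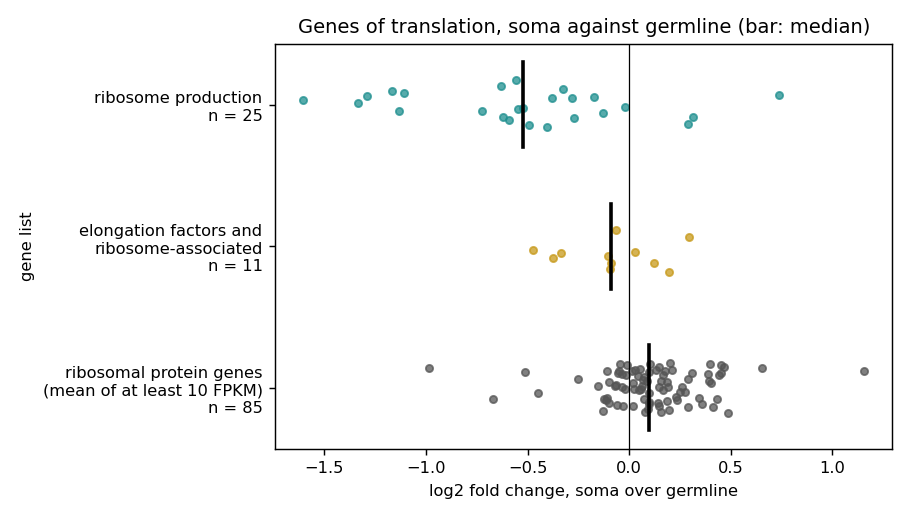
Log2 fold change of soma over germline for the 85 expressed ribosomal protein genes, 11 elongation factors and ribosome-associated proteins and 25 genes of ribosome production, 1 point per gene with a bar at the median. The medians were 0.10, −0.09 and −0.52, and no gene shown passed an adjusted p of 0.05.

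Annotation limits the reading of single members. Exons of 25 members overlap a gene on the other strand and those of 10 a gene on the same strand, 32 members in all, and 29 members hold 76 snoRNA genes within their span. Whether counting used strand is not given in the sources used here, so reads of such members and of the genes that overlap them cannot be told apart.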

How the data were processed

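Soma and germline TRAP libraries (2 each) were compared. The authors deposited FPKM values, 1 column per library, written with decimal commas, which were read as points; no value lay below 0. The submitters' processing notes name cutadapt, FastQC, HISAT2, DESeq2 and the build dm6, without roles. The counter, annotation, strand setting and treatment of reads shared by paralogues are not given in the sources used here. Coordinates, lengths and overlaps came from Ensembl release BDGP6.54, matched by identifier or, for 5 members, by symbol. Whole reads were recovered as FPKM times exon length over a library constant for 96.6% of genes above 0 (tolerance 0.03 reads) and for 86 of 88 members above 0 (not RpL23A and RpL26). Library constants show that FPKM had been scaled between libraries.

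Soma was tested against germline with limma 3.58.1 (R 4.3.3) on log2(FPKM + 0.1), lmFit and eBayes with a trend, without a replicate block, for 8823 genes averaging 0.1 FPKM or more, two-sided with Benjamini-Hochberg adjustment. This scale understates changes of low genes. Single values per library were compared by exact permutation. Other steps used Python 3.11.15, numpy 2.4.6, pandas 2.3.3 and scipy 1.17.1. Named members were the bait, all paralogues, the 5 largest and 5 smallest log2 fold changes and the 3 highest and 3 lowest means among the rest, the stalk proteins, sta, RpS27A and RpL40; others named illustrate a count or an extreme and were chosen after their values were seen. Members and gene lists were chosen with earlier results of these data known. Of the listed markers and production genes, br, vas, wupA, Mybbp1A and Sbds were not matched. Alternatives were other pseudocounts, filters, scalings, eBayes without a trend, a replicate block, libraries left out and limma-voom on recovered reads; scaling to the member median and a crossed block were added after seeing the data. Promoter and protein sequences were not used here, and 3 members are counted but not reported singly here.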

Additional observations from a re-analysis of the deposited data

How the results depend on the processing

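With 2 libraries per group, single libraries decided most directions. Of 35 named members tested, 30 changed sign in at least 1 fit that left out a library, 25 under another of the 12 alternatives, and 3 under none. A lone library was then assumed to vary like the other group. Without a library, the count of members called in the germline was 0 in each case (1 with all), while 0 were called in the soma, 1 was over 5-fold in the germline, the median log2 fold change of the members ran from −0.55 to 0.72 and the difference in their share of FPKM from −1.60 to 4.10 points. The log2 fold changes that changed sign ran as follows without a library: RpL24 −0.47 to 1.29, RpL34a −0.49 to 0.24, RpL34b −0.60 to 0.48, RpL37a −0.38 to 0.75, RpL7 −0.61 to 0.65, RpLP0 −0.14 to 0.53, RpLP0-like −0.31 to 0.27, RpS10b −0.33 to 0.90, RpS14a −0.52 to 1.24, RpS14b −0.54 to 0.72, RpS15Aa −0.58 to 1.00, RpS15Ab −0.53 to 0.63, RpS19a −0.42 to 0.73, RpS19b −1.31 to 1.49, RpS28b −0.46 to 1.76, RpS18 −0.25 to 1.22, RpL38 −0.56 to 1.49, RpL27A −0.11 to 1.00, RpS3 −0.12 to 0.93, RpLP2 −1.49 to 0.46, RpS3A −0.99 to 0.48, RpL4 −0.55 to 0.24, RpL39 −0.93 to 0.66, RpL36 −0.55 to 1.13, RpS26 −0.80 to 0.71, RpL13 −0.61 to 0.40, RpLP1 −0.39 to 0.69, sta −0.20 to 0.55, RpS27A −1.08 to 1.04, RpL40 −0.59 to 0.69.

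Quantile normalization called 2 members in the germline (RpS10a among them, 4.45% of all genes), and limma-voom called 1 in the soma. The difference in the members' share of FPKM, 1.25 points with all genes, was −4.76 without rRNA genes and −3.00 over protein-coding genes. Scaling to equal FPKM totals without rRNA genes, which moved the median of all genes to −0.43, turned the log2 fold changes to RpL10Ab −0.061, RpL22 −0.057, RpL24 −0.099, RpL37a −0.33, RpL7 −0.49, RpLP0 −0.32, RpS10b −0.22, RpS14a −0.15, RpS14b −0.42, RpS15Aa −0.30, RpS15Ab −0.46, RpS19a −0.36, RpS18 −0.026, RpL38 −0.044, RpL27A −0.070, RpS3 −0.11, RpL36 −0.22, RpLP1 −0.36, sta −0.33, RpL40 −0.46. Quantile normalization turned RpL37a −0.17, RpL7 −0.33, RpLP0 −0.079, RpS10b −0.13, RpS14b −0.28, RpS15Aa −0.29, RpS15Ab −0.19, RpS19a −0.25, RpS19b −0.56, RpS28b −0.081, RpS18 −0.065, RpL27A −0.057, RpS3 −0.28, RpL36 −0.23, RpLP1 −0.17, sta −0.17, RpL40 −0.32. Equal medians of the genes other than the members turned RpL7 −0.066, RpS15Ab −0.032, RpL40 −0.033, scaling to the member median turned RpL7 −0.098, RpS14b −0.024, RpS15Ab −0.064, RpL40 −0.065, and limma-voom turned RpS3A 0.032, RpS26 0.15, RpS27A 0.34. The causes were not tested.

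The replicate numbers shared by the groups gave no sign of a pairing: deviations of same-numbered libraries correlated at −0.07 over all genes tested and at −0.19 over those of at least 10 FPKM. With 2 libraries per group the crossed correlation is the same value with its sign turned. It therefore cannot decide how the libraries pair. With the replicate block the counts of members called stayed at 0 (soma) and 1 (germline). With the block crossed, added after seeing the data, they were 1 (soma) and 2 (germline), and the calls over all genes were 1198 and 852, compared with 762 and 317 without a block. The number called over all genes differed by more than 1.5 times from these last in several fits, to 275 and 126 with equal totals, 321 and 37 with the member median, 451 and 37 without a trend, and 918 and 656 with limma-voom, and the replicate block gave 968 and 581. Of the 25 ribosome production genes, 0 were called without a block and 6 with either block (Nmd3, Non3, Nop60B, RIOK2, Surf6 and bys, where 6.59% of all genes were called in the germline with the block and 9.66% with it crossed). Depth limits the low members, since the shallowest library had 629199 reads outside rRNA.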
